A study of Mus musculus with 60 samples.

Results

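The replication-dependent histone genes are described here in the cerebral cortex and striatum of mice that carry altered alleles of Htt, the huntingtin gene. Members were all entries whose symbol begins with Hist1h, Hist2h, Hist3h or Hist4, which gave 71 of the 47574 entries used: 6 for the linker histone H1, 20 for H2A, 20 for H2B, 12 for H3 and 13 for H4. Of these, 56 lie on chromosome 13, 11 on chromosome 3, 3 on chromosome 11 and 1 on chromosome 6. The files hold 1 table of FPKM (fragments scaled to transcript length and to the total of mapped fragments) for each of 60 libraries, made from RNA depleted of ribosomal RNA, a preparation that keeps transcripts without a poly(A) tail. All animals were labelled as c57BL-6N mice aged 3 months, with wild-type litter mates as controls. The Δ12 line carries a deletion inside Htt exon 12 that creates a new splice donor, and gave +/+, Δ12/+ and Δ12/Δ12 mice. The KO line descends from 1 founder whose deletion removed the splice donor, and gave +/+ and KO/+ mice. Each of the 10 groups (labelled tissue, line and genotype) has 6 libraries, 3 labelled male and 3 labelled female.

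Replication-dependent histone genes supply the core histones and the linker histone that package newly copied DNA. They lie in clusters, have almost no introns, and their messages end in a conserved stem-loop, bound by SLBP and cut with the help of the U7 small nuclear RNP, in place of a poly(A) tail. Their synthesis is tied to S phase, although in adult brain, where most cells no longer divide, some members are also made as longer polyadenylated messages. Libraries made from poly(A) RNA miss much of this family.

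The libraries did not fall along their labels. Slc17a7, the vesicular glutamate transporter of cortical excitatory neurons, was above 100 FPKM in 30 libraries, called cortex-like below, and at 64.8 FPKM or less in the other 30, called striatum-like. The cortex-like libraries were all those of the Δ12-line +/+ and Δ12/+ groups and the labelled male Δ12/Δ12 libraries, 15 of them labelled cortex and 15 labelled striatum. The striatum-like libraries were the whole KO line and the labelled female Δ12/Δ12 libraries. All 8 listed markers of striatal projection neurons were higher in the median of the striatum-like libraries, and the 5 listed markers of cortical excitatory neurons other than Slc17a7, which set the classes, were lower. Line and tissue class therefore cannot be told apart between the +/+ groups of the lines, although both classes occur within the Δ12 line. Xist and Ddx3y went with the labelled sex in only 30 of 60 libraries. Of 12 libraries labelled KO/+, 5 had Htt at or above the lowest +/+ library of their line. The intervals in the tables imply 12700000 to 19400000 fragments per cortex-like library and 16400000 to 27500000 per striatum-like library.

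The stem-loop was found in the GENCODE M21 model of 42 of the 69 members that have one, and its letters separated H4 from the other classes. The windows below are printed 5′ to 3′ as DNA, with the 16 bases of the stem-loop in capitals and 5 bases on either side, and were chosen to show each form found among the H4 genes and the forms of the other classes.
Hist1h4n: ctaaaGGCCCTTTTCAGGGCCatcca
Hist2h4: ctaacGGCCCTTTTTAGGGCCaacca
Hist1h4b: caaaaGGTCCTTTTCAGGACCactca
Hist1h1d: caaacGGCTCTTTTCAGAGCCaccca
Hist1h2bg: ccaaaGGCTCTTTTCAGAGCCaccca
Hist2h2ac: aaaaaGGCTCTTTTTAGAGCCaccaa
Hist1h2bb: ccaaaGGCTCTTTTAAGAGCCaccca
Hist1h3e: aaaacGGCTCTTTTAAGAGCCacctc
The form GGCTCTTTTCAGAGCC was carried by 3 H1, 10 H2A, 6 H2B and 5 H3 genes, and by no H4 gene. Of the H4 genes, 7 carried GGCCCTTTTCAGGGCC, 2 had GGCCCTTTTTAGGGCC (Hist1h4i and Hist2h4) and 2 had GGTCCTTTTCAGGACC (Hist1h4j and Hist1h4b). The form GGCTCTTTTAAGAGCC was found in 1 H1, 2 H2B and 3 H3 genes. The model ended within 100 bases after the stem-loop in 21 members, as for a message cut at its usual site, and went on for more than 100 bases in the other 21. The stretch past the stem-loop was 4884 bases in Hist1h1d, 2445 in Hist4h4 and 1257 in Hist2h4. The search took only an exactly paired stem of 6 bases that starts with GG and ends with T, with a loop of TTT and any base. Variant forms would have been missed. Of the 27 models in which no stem-loop was found, 17 had a length that is a multiple of 3.

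Promoters of 61 members were matched in RefSeq (GRCm38.p6, 250 bases before to 50 after each start), and their motifs also followed the histone classes. Motifs were searched as exact letters on both strands. The TATA box (TATAAA) was in 35 of 61 (57.4%) against 13.6% of all 32851 promoters of that length. CCAAT was in 52 of 61 (85.2%) against 37.4%, and these included every H1, H2A, H2B and H3 promoter but only 3 of 12 H4 promoters. The octamer ATTTGCAT was found in 7 of 17 H2A and 6 of 16 H2B promoters and in none of the other classes (1.74% of all promoters). Windows of H2A and H2B genes that start close together on opposite strands overlap, so the same site can count in both classes. Hist1h2aa and Hist1h2ba, with starts 306 bases apart, share their octamer in this way. The core of the HINFP site, CGGAC, was in 12 of 12 H4 promoters (23.4% of all) and in 8 H2A, 5 H2B, 1 H3 and 0 H1 promoters. The windows of paired H2A and H2B genes can also run into the partner gene. The CGGAC match of Hist1h2ak, for example, lies within the listed locus of Hist1h2bn. The H1 box AAACACA was in 5 of 6 H1 promoters (7.18% of all). The promoters of Hist1h4n (chr13:21832148-21832447, minus strand), the member with the highest level, Hist1h1d (chr13:23554782-23555081, plus strand), the highest H1, and Hist1h2bg (chr13:23571150-23571449, plus strand), whose start faces that of Hist1h2ae, show these patterns, with the motif matches in capitals.
Hist1h4n: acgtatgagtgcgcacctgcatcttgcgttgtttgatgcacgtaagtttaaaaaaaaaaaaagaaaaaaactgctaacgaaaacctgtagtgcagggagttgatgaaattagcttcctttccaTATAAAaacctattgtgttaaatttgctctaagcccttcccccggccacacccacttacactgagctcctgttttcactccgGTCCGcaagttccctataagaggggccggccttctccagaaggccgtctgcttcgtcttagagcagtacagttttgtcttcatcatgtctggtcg
Hist1h1d: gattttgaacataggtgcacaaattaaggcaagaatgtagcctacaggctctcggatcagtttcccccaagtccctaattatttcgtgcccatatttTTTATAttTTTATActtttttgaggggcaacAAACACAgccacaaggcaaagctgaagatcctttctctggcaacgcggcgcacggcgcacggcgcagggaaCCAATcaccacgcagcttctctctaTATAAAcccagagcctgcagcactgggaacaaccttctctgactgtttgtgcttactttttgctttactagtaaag
Hist1h2bg: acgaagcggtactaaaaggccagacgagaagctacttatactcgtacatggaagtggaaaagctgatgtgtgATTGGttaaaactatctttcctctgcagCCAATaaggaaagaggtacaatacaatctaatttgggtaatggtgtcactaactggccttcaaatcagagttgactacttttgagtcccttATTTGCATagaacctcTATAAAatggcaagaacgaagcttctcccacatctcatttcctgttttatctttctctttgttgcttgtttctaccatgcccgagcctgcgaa

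H4 genes made up most of the histone signal. They were 8 of the 10 members with the highest median over the 60 libraries, and their sum was between 64.7% and 73.5% (median 70.7%) of the summed histone FPKM of a cortex-like library and between 56.2% and 60.7% (median 58.5%) of that of a striatum-like one. FPKM here were rescaled between libraries by the median of ratios over 13235 entries, and levels are per length, although whether the authors' program corrected for the short length of these transcripts is not given in the sources used here. Members whose mean rescaled FPKM reached 0.5 numbered 67, and 4 did not.

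The summed rescaled FPKM of the 71 entries ran from 4580 to 10027 (median 6293) in the cortex-like libraries and from 1271 to 1964 (median 1617) in the striatum-like libraries, so that no library of one kind reached the other. With libraries scaled instead on 398 short protein-coding entries (longest model 300 to 1000 bases, no members), the ranges were 3006 to 5038 and 2184 to 3313 and overlapped. On the first scale all class sums were lower in the striatum-like libraries: H1 had medians of 304.9 and 76.9, H2A 640.8 and 247.1, H2B 599.2 and 198.8, H3 288.5 and 157.3, and H4 4592 and 945.8. On the short-transcript scale H4 was still apart and lower, from 1944 to 3644 against 1227 to 1920, whereas H3 turned the other way, with medians of 169.4 and 269.4, and H1, H2A, H2B and H3 all overlapped. Under quantile normalization the H4 sums overlapped as well.

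**Figure D1:**
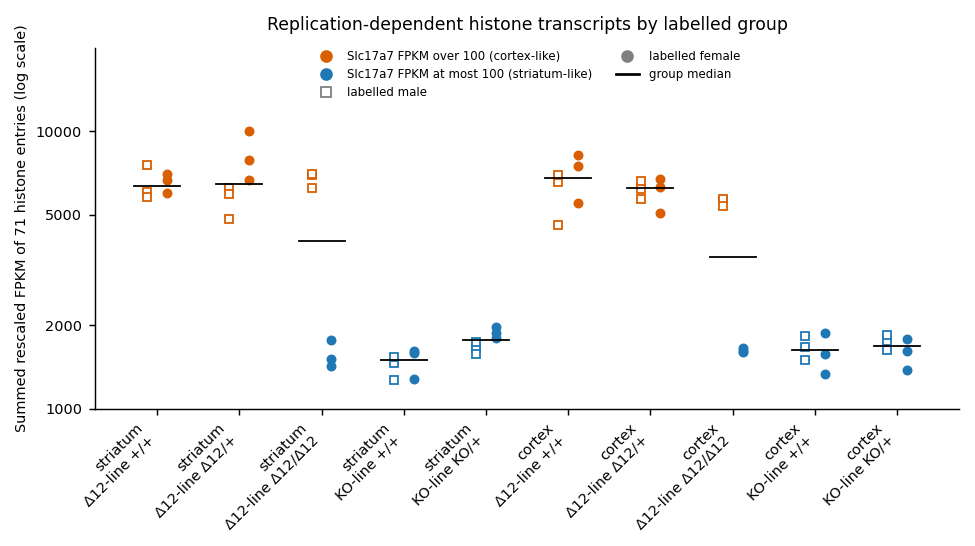
Summed rescaled FPKM of the 71 histone entries (log axis) in each of the 60 libraries, by labelled group with colour for expression class, squares for labelled males, filled circles for labelled females and lines for group medians. The cortex-like libraries lie between 4580 and 10027 and the striatum-like libraries between 1271 and 1964 on this scale, and the Δ12/Δ12 groups hold 3 libraries of each kind; on the short-transcript scale the ranges of the classes overlap.

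Member by member, 64 of 67 had the lower median in the striatum-like libraries on the first scale, where 50.8% of all 16076 entries had the higher median there. Ranges did not overlap for 31 of 67, all lower in the striatum-like libraries, beside 36.2% of all entries apart in either direction and 16.9% apart and lower. The median ratio of striatum-like to cortex-like medians was 0.419 on the first scale and 1.25 on the short-transcript scale, on which 40 of 67 members were higher and 27 lower, with 15 apart (8 lower, 7 higher). Over all 16646 entries on that scale, 14026 were higher and 9781 were apart, 403 of them lower. The short-transcript scale moved the median log2 difference of all entries from 0.03 to 1.35, and that of the members from −1.20 to 0.30, so the members stood below the median of all entries on either scale. The 3 members with the higher median in striatum-like libraries on the first scale were Hist2h3c2, at 1.65 times, Hist2h2be, at 1.44 times, and Hist1h2ak, at 1.32 times.

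Short transcripts as a whole differed in the same direction. The 67 members had a median log2 difference of −1.20, and 512 protein-coding entries of 300 to 1000 bases had −1.23. Across protein-coding entries the difference was −0.93 for models of 300 to 500 bases and −1.37 for those of 500 to 800, and rose with length from there to 0.64 for those of 5000 bases or more. Among the classes, H4 had a median of −2.32 and H1 −1.95, below the lower quartile of the short entries for H4 (−2.04), while H2A (−1.09), H2B (−0.85) and H3 (−0.63) lay above the short entries' median. Members whose model ends within 100 bases of the stem-loop had a median of −1.10 (21 members). Those whose model goes on further had −1.54 (20), and those with no stem-loop found in the model −1.13 (24). Lengths and ends are those of GENCODE M21 models, and the loci listed with the FPKM were shorter for some members. Hist1h1d, for example, was listed at bases 23555087 to 23555830 of chromosome 13, against a model of 7425 bases. For such members the stretch past the stem-loop may not have been measured. Small RNAs made by RNA polymerase III moved with them: Rn7sk had medians of 120903 in cortex-like and 15344 in striatum-like libraries, Rmrp 122224 and 13215, and Rpph1 386643 and 16924, without overlap. The part of transcript length in the histone differences beyond this was not tested.

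**Figure D2:**
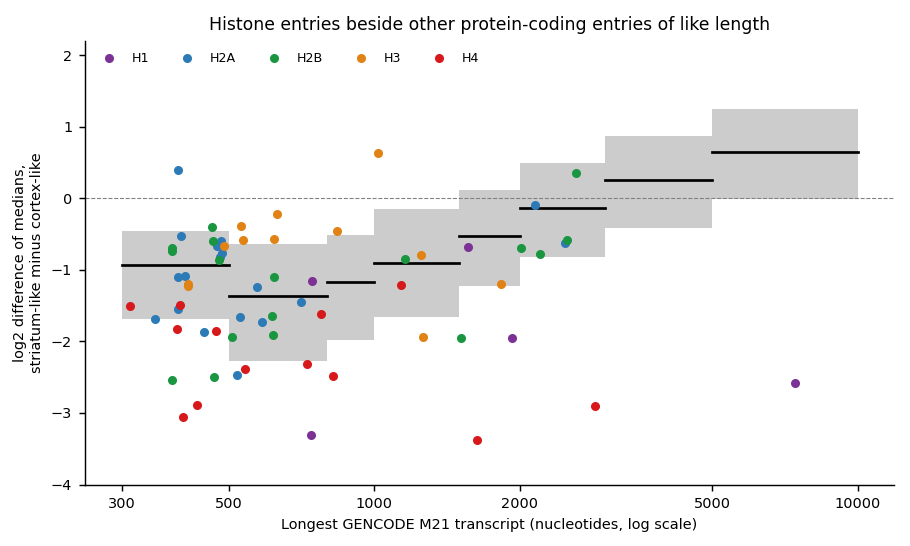
Log2 difference of median rescaled FPKM, striatum-like minus cortex-like libraries, against the length of the longest transcript model (log axis); points are histone entries coloured by class, black lines the median and grey boxes the quartiles of other protein-coding entries in bins of length. The bin medians lie between −1.37 and −0.93 up to 1000 bases and at 0.64 from 5000 bases. The median of H4 is −2.32 and that of H3 −0.63. On the short-transcript scale 40 of 67 members had the higher median in striatum-like libraries. Models are those of GENCODE M21 and are longer than the listed locus of some members, such as Hist1h1d.

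A test between labelled groups could be made along this difference, since the +/+ mice of the KO line were striatum-like and those of the Δ12 line cortex-like. Line and tissue class cannot be told apart in it, and libraries labelled striatum and cortex carry the same mouse numbers. The test was fitted with limma on log2(rescaled FPKM + 0.5) with labelled sex as a covariate, 6 libraries against 6. Entries were called at a Benjamini-Hochberg adjusted p under 0.05. In libraries labelled striatum, KO-line +/+ mice differed from Δ12-line +/+ mice in 63 of 67 members tested, 61 lower and 2 higher (Hist2h3c2 and Hist2h2be), where 79.4% of all entries were called, 37.4% lower and 41.9% higher. In libraries labelled cortex, 58 of 68 were called, 56 lower and 2 higher (Hist1h2ak and Hist2h3c2), where 68% of all entries were called, 31.6% lower and 36.5% higher. On the short-transcript scale the calls split as 27 higher and 21 lower in striatum and 28 higher and 17 lower in cortex, beside 13063 higher and 1446 lower of all 16265 entries in striatum and 12688 higher and 1294 lower of 16330 in cortex. All 13 H4 and 5 H1 members tested were lower in both labelled tissues on the first scale. The line difference did not pass the test of a difference between labelled tissues for any of 68 members, where 0.0252% of all entries were called. Short protein-coding entries went the same way, with 387 of 511 lower and 34 higher in striatum and 330 of 514 lower and 24 higher in cortex.

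H4, the core histone that pairs with H3, is encoded as the same protein by the genes of this class. Hist1h4n was the highest member, with 607.0 to 2097 (median 959.9) rescaled FPKM in cortex-like and 85.9 to 173.9 (median 129.2) in striatum-like libraries. Hist1h4h had 449.1 to 995.2 (median 594.9) and 129.4 to 205.9 (median 164.5), so that it, and not Hist1h4n, was the highest H4 gene in striatum-like libraries. Hist1h4m had 404.1 to 1504 (median 715.3) and 54.0 to 109.2 (median 85.2). None of these ranges overlapped. Hist1h4c spread more widely, from 269.2 to 1064 (median 825.1) in cortex-like libraries, and had 119.5 to 178.2 (median 146.9) in striatum-like ones. Hist1h4d had 216.8 to 455.0 (median 311.9) and 105.6 to 169.6 (median 134.5). At the low end, Hist4h4, the single member on chromosome 6, had medians of 15.1 and 1.59, and Hist2h4 had medians of 109.5 and 10.1, a ratio of 0.0917 that was the lowest of the family on the first scale and 0.272 on the short-transcript scale.

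Between the +/+ groups, the log2 difference of Hist2h4 (KO line minus Δ12 line) was −3.65 (SE 0.14, adjusted p = 9.94e-10) in striatum and −3.44 (SE 0.20, adjusted p = 8.18e-08) in cortex. Its levels were 88.4 to 144.3 (median 121.2) in Δ12-line and 6.40 to 11.5 (median 8.99) in KO-line libraries labelled striatum, and 76.7 to 168.6 (median 129.0) and 9.75 to 11.4 (median 10.4) in those labelled cortex. The groups were far apart in both. Hist1h4n differed by −3.23 (SE 0.13) and −2.92 (SE 0.17), Hist1h4m by −3.38 (SE 0.15) and −3.03 (SE 0.20), and Hist4h4 by −3.06 (SE 0.18) in cortex. Hist1h4c, with the smallest p of the family in striatum, differed by −2.50 (SE 0.08, adjusted p = 3.58e-10) there and by −2.25 (SE 0.29) in cortex, and Hist1h4a by −2.48 (SE 0.08) in striatum. All of these were also lower on the short-transcript scale. Hist1h4h (−2.01 and −1.93) kept its sign on that scale but not under quantile normalization, and Hist1h4d (−1.28 and −1.26) kept it under neither.

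H1 linker histones bind the DNA that enters and leaves the nucleosome. Hist1h1d, which encodes H1.3, was highest, with 75.9 to 216.5 (median 110.9) in cortex-like and 11.5 to 26.2 (median 18.1) in striatum-like libraries. Hist1h1e (H1.4) had 52.0 to 108.2 (median 86.3) and 17.8 to 31.4 (median 22.0), and Hist1h1a (H1.1) 31.1 to 85.3 (median 52.6) and 3.26 to 6.57 (median 4.88). These 3 did not overlap. Hist1h1c (H1.2) did, with 24.5 to 54.6 (median 41.7) and 18.1 to 34.3 (median 25.8), as did Hist1h1b (H1.5) with 3.59 to 13.1 (median 6.53) and 1.57 to 4.61 (median 2.65). The order of the medians therefore changed between the kinds of library. Hist1h1c had a lower median than Hist1h1d, Hist1h1e and Hist1h1a in the cortex-like libraries and the highest of the class in the striatum-like libraries. Its range, however, overlapped those of Hist1h1a and Hist1h1e in the former and those of Hist1h1d and Hist1h1e in the latter. In the +/+ comparison Hist1h1a had log2 differences of −3.43 (SE 0.13) in striatum and −3.40 (SE 0.22) in cortex, Hist1h1d −2.98 (SE 0.15) and −2.68 (SE 0.18), Hist1h1e −1.90 (SE 0.13) and −1.87 (SE 0.11), and Hist1h1b −1.50 (SE 0.15) and −1.20 (SE 0.22). Hist1h1c had −0.83 (SE 0.10) and −0.85 (SE 0.15), and turned to 0.74 and 0.75 on the short-transcript scale, where Hist1h1b turned to 0.22 in cortex.

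H2A was led by the pair Hist2h2aa1 and Hist2h2aa2, near-identical copies that share 89.4% and 100% of their 50-base words with other genes, so that the authors' program may have split reads between them. Hist2h2aa2 had 122.6 to 317.9 (median 182.3) in cortex-like and 45.1 to 64.9 (median 57.3) in striatum-like libraries, and Hist2h2aa1 had 114.8 to 309.4 (median 176.8) and 42.6 to 60.7 (median 52.8). Hist2h2ac had 38.3 to 97.2 (median 60.7) and 8.05 to 14.9 (median 10.5), and Hist1h2ae 15.8 to 34.4 (median 24.5) and 4.48 to 13.3 (median 8.64). These were apart on the first scale, with medians closer to each other on the short-transcript scale (ratios of 0.926, 0.878, 0.547 and 1.05). Hist1h2ak, by contrast, had 5.28 to 26.8 (median 16.9) and 15.2 to 33.1 (median 22.2), overlapping. Between +/+ groups Hist2h2ac differed by −2.45 (SE 0.15) in striatum and −2.69 (SE 0.20) in cortex, Hist2h2aa1 by −1.89 (SE 0.11) and −1.94 (SE 0.14), Hist2h2aa2 by −1.81 (SE 0.11) and −1.83 (SE 0.14), and Hist1h2ae by −1.50 (SE 0.15) and −1.58 (SE 0.26). Hist1h2ae turned to 0.04 in striatum on the short-transcript scale. Hist1h2ak differed by 0.30 (SE 0.13, adjusted p = 0.0568), not called, in striatum and by 0.50 (SE 0.17, adjusted p = 0.0238) in cortex.

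H2B was led by Hist2h2bb (ENSMUSG00000105827), with 121.6 to 242.1 (median 156.9) in cortex-like and 16.2 to 34.1 (median 26.5) in striatum-like libraries, and a second entry with the same symbol had medians of 5.11 and 0.954. Hist1h2bg had 46.7 to 160.3 (median 111.5) and 21.6 to 41.7 (median 29.3), Hist3h2ba 38.8 to 145.5 (median 76.8) and 18.9 to 29.5 (median 24.3), and Hist1h2bb 52.9 to 139.3 (median 73.1) and 11.9 to 26.8 (median 18.7). None of these overlapped on the first scale. Hist1h2bc overlapped, with 45.2 to 93.9 (median 72.5) and 30.7 to 55.1 (median 39.9), and had the highest H2B median in striatum-like libraries. Between +/+ groups Hist2h2bb (ENSMUSG00000105827) differed by −2.82 (SE 0.20) in striatum and −2.69 (SE 0.14, adjusted p = 4.14e-08) in cortex, where it had the smallest p of the family. Hist1h2bb differed by −2.20 (SE 0.16) and −1.94 (SE 0.19), Hist1h2bg by −2.16 (SE 0.10) and −1.73 (SE 0.25), Hist3h2ba by −1.79 (SE 0.13) and −1.45 (SE 0.20) and Hist1h2bc by −1.08 (SE 0.07) and −0.60 (SE 0.13). Hist1h2bc turned to 0.51 and 1.00 on the short-transcript scale, and Hist3h2ba to 0.15 in cortex. Hist2h2be, the H2B gene known for a variant of olfactory neurons, was low, with 0 to 1.63 (median 0.833) in cortex-like and 0.694 to 1.73 (median 1.20) in striatum-like libraries.

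H3 class sums were the closest between the kinds of library on the first scale. Hist1h3i had 48.1 to 112.6 (median 71.3) in cortex-like and 22.1 to 39.1 (median 30.8) in striatum-like libraries, Hist1h3h 29.7 to 59.7 (median 46.6) and 12.8 to 25.2 (median 19.6), and Hist1h3f 28.5 to 71.7 (median 45.9) and 7.62 to 13.6 (median 11.6). These 3 were apart. Hist1h3d had 18.9 to 40.1 (median 30.3) and 10.5 to 24.3 (median 17.3), and Hist1h3e 21.4 to 45.4 (median 29.9) and 16.1 to 28.9 (median 21.6), both overlapping. Between +/+ groups Hist1h3f differed by −2.16 (SE 0.13) in striatum and −2.15 (SE 0.14) in cortex, Hist1h3h by −1.62 (SE 0.11) and −1.18 (SE 0.19), Hist1h3i by −1.43 (SE 0.16) and −1.24 (SE 0.19), Hist1h3d by −1.04 (SE 0.11) and −0.79 (SE 0.17) and Hist1h3e by −0.72 (SE 0.12) and −0.52 (SE 0.16). Scaling on short transcripts turned Hist1h3i, Hist1h3d and Hist1h3e to values above 0 in both labelled tissues (0.15, 0.53 and 0.85 in striatum; 0.36, 0.80 and 1.07 in cortex), and Hist1h3h to 0.42 in cortex.

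**Figure D3:**
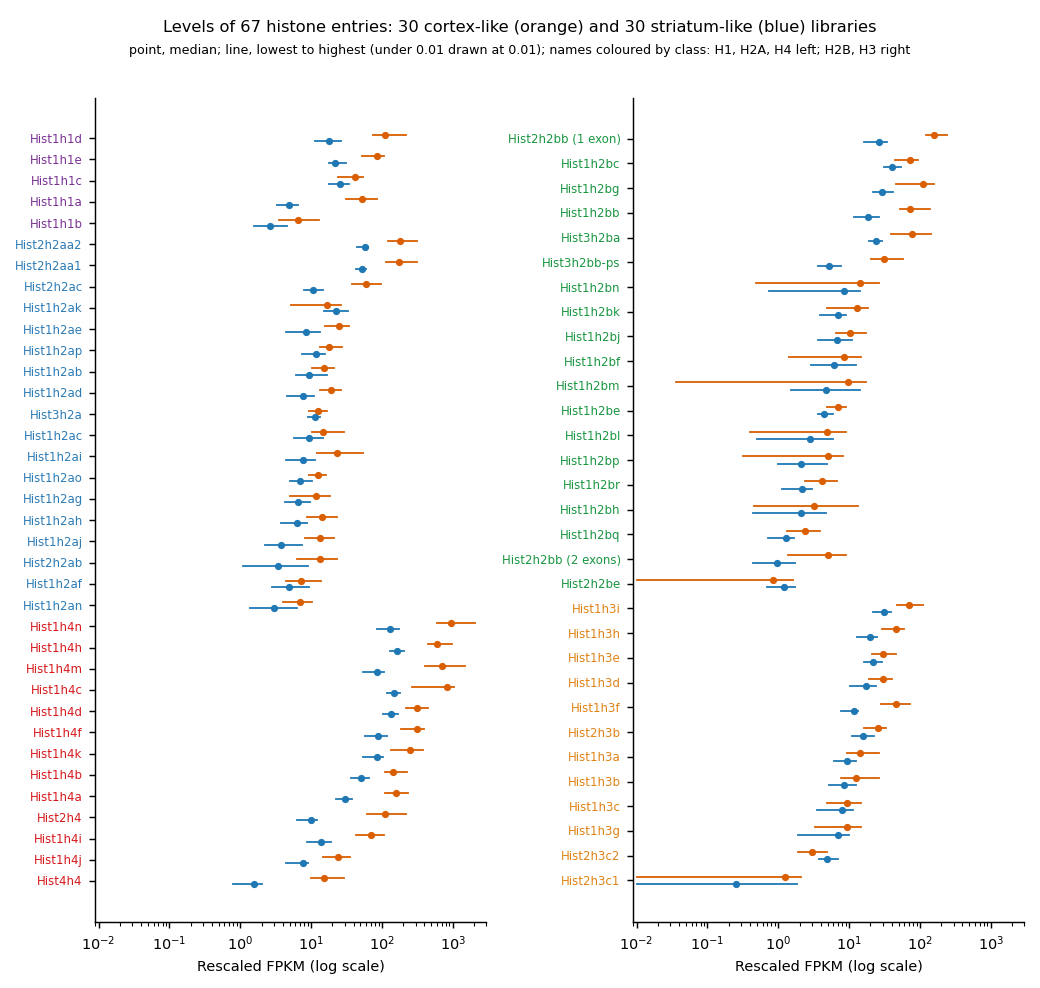
Median rescaled FPKM of each of 67 histone entries (log axis, values under 0.01 drawn at 0.01), with the range over libraries, in the 30 cortex-like and the 30 striatum-like libraries, by histone class. Of 67 entries with a mean of at least 0.5, 64 have the lower median in striatum-like libraries on this scale (27 on the short-transcript scale), and Hist1h4n has medians of 959.9 and 129.2, the highest in cortex-like libraries.

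Of 13 pairs of H2A and H2B genes that start 173 to 306 bases apart on opposite strands, the H2B gene had the higher median in 5. The partners could differ widely: Hist2h2ac had a median of 26.6 over all libraries and Hist2h2be 1.05, whereas Hist1h2ac had 12.0 and Hist1h2bc 48.5. Hist1h2ag and Hist1h2bj had 8.96 and 8.79. Levels are per length, and the models of Hist2h2ac and Hist2h2be have 520 and 2620 bases. Their median implied fragments over all libraries were 126.0 and 45.06. Of the testis histones, Hist1h1t was listed at 0 in 46 of 60 libraries and Hist1h2aa in all 60, and Hist1h2ba had a median of 0.191. A listed 0 may come from how the tables were made, since the U7 RNA gene Rnu7 was also listed at 0 in every library. Hist1h2al, with a median of 0.296, was the remaining member under the filter. Over 50% of the 50-base words of 34 members occur in another gene, 4 members share none (Hist1h1t, Hist1h1a, Hist1h1b and Hist2h2be), and 26 loci, 20 of them H2A, overlap another entry, so that single-gene levels are uncertain where reads could be split.

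The KO allele in 1 copy was addressed by KO/+ against +/+ mice of the KO line, all 24 libraries of which were striatum-like. In libraries labelled striatum, Htt itself overlapped between the groups, at 11.65 to 16.83 FPKM in KO/+ and 15.42 to 18.11 in +/+. There, 3 KO/+ libraries had Htt at or above the lowest +/+ library. In libraries labelled striatum, 15 of 67 members were called, all higher in KO/+, where 6.91% of all entries were called and 3.51% called higher: 6 of 12 H3, 4 of 18 H2A, 3 of 19 H2B, 2 of 5 H1 and 0 of 13 H4. The median log2 difference was 0.29 for the members, 0.02 for all entries and 0.01 for 478 short protein-coding entries. The summed histone FPKM was 1271 to 1614 (median 1500) in +/+ and 1580 to 1964 (median 1767) in KO/+, overlapping narrowly.

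Hist1h2ap, an H2A gene, had 7.54 to 11.5 (median 9.75) in +/+ and 12.1 to 14.9 (median 13.6) in KO/+, without overlap, a log2 difference of 0.50 (SE 0.10, adjusted p = 0.0128). Hist1h2ao, another H2A gene, had 5.15 to 6.67 (median 6.30) and 7.08 to 9.47 (median 8.16), also apart (0.39, SE 0.08, adjusted p = 0.0135). Both sit within one stretch of chromosome 13 and share over 90% of their 50-base words with other genes. Hist1h2bf, an H2B gene, showed the largest of the 15 differences, with 2.89 to 5.64 (median 4.75) and 6.16 to 12.6 (median 9.30), or 0.92 (SE 0.18, adjusted p = 0.0144). Hist1h2bq, the H2B gene beside Hist1h2ao, had 0.912 to 1.28 (median 1.09) and 1.19 to 1.69 (median 1.48), overlapping (0.32, SE 0.06, adjusted p = 0.0128), and Hist1h3b 6.90 to 8.80 (median 7.09) and 9.17 to 11.7 (median 10.3), apart (0.41, SE 0.08, adjusted p = 0.0172). The other 10 called were Hist1h1c, Hist1h1d, Hist1h2bj, Hist1h2ag, Hist1h2ak, Hist1h3a, Hist1h3c, Hist1h3e, Hist1h3g and Hist1h3h, with differences from 0.33 to 0.86. Hist1h4n, with the smallest p among H4 genes, had means of 149.2 in KO/+ and 112.6 in +/+ (0.41, SE 0.11, adjusted p = 0.0571), not called.

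These calls depended on single libraries and on scaling. Leaving out 1 library at a time gave between 7 and 17 called members, with fewer than 10 without +/+ male 1 (8), +/+ female 1 (8), +/+ female 3 (9), KO/+ male 3 (8), KO/+ female 2 (7) or KO/+ female 3 (8). The last of these has a title and a genotype label that disagree. On the FPKM as deposited 1 member was called, where 306 of all 15500 entries were, 23 of them higher. On the short-transcript scale 13 were called, beside 866 of all 17206 entries, 466 of them higher. Markers of other cells moved in the same comparison: 6 of 8 markers of striatal projection neurons were higher in KO/+, with sums of 1144 to 1558 in +/+ and 1620 to 2102 in KO/+, and 2 of 3 oligodendrocyte markers were lower, with sums of 587.9 to 743.0 and 491.9 to 564.6. Their part in the result was not tested, and in bulk tissue fewer cells of a type and less RNA per cell cannot be told apart.

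In libraries labelled cortex, 0 of 66 members were called by limma between KO/+ and +/+ (1 at an unadjusted p under 0.05), where 0.0885% of all entries were. The smallest p was that of Hist3h2bb-ps, an H2B pseudogene, with 4.66 to 6.35 (median 5.63) in +/+ and 3.81 to 5.56 (median 4.17) in KO/+, a log2 difference of −0.30 (adjusted p = 0.219). Hist1h2ap had 8.76 to 15.5 and 7.73 to 15.0 there, and Hist1h2bf 5.14 to 8.47 and 5.04 to 7.71, overlapping widely. The difference between the labelled tissues was itself tested and passed for 0 of 66 members, as for 0% of all entries, with 10 members at an unadjusted p under 0.05.

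**Figure D4:**
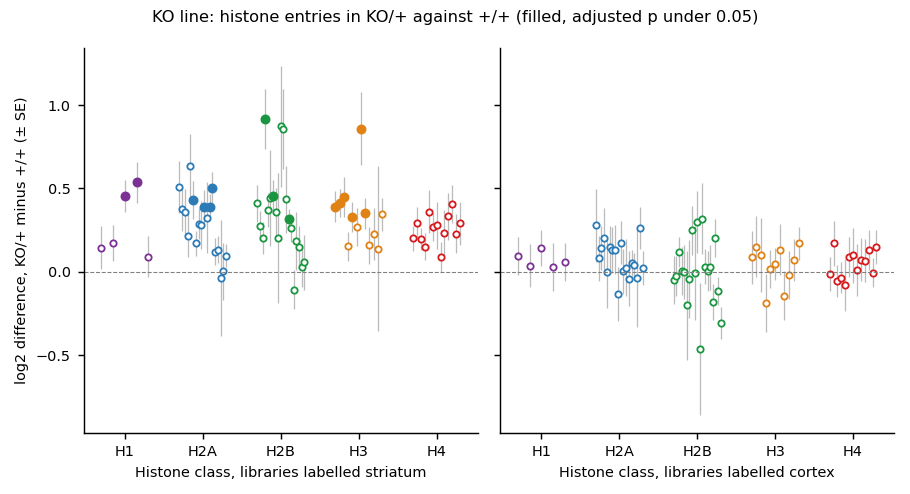
Log2 difference of rescaled FPKM, KO/+ minus +/+, of each tested histone entry of the KO line (points, with bars of 1 standard error), by histone class, in libraries labelled striatum (left) and cortex (right). Filled points passed an adjusted p under 0.05: 15 of 67 in striatum, all above 0 and none of them H4, and 0 of 66 in cortex.

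The Δ12 allele in 1 copy was compared with +/+ litter mates within the Δ12 line, where both groups were cortex-like. No member of 69 was called by limma in striatum (0 at an unadjusted p under 0.05) and none of 68 in cortex (2 at an unadjusted p under 0.05), where 0.00663% and 0.0662% of all entries were called. The smallest p in cortex was that of Hist1h3c, with a log2 difference of −0.50 (SE 0.11, adjusted p = 0.156) and means of 7.68 in Δ12/+ and 11.2 in +/+. In striatum the same gene had −0.32 (SE 0.15, adjusted p = 1).

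With Δ12 in 2 copies, 22 of 68 members were called in libraries labelled striatum, all lower in Δ12/Δ12, where 28.3% of all entries were called and 13.6% called lower. This group, however, mixed the kinds of library. Its 3 labelled males had summed histone FPKM of 6275 to 6999 and its 3 labelled females 1419 to 1769, beside 5782 to 7579 in +/+. In libraries labelled cortex 0 of 68 were called (37 at an unadjusted p under 0.05), where 0.924% of all entries were, and the sums were 5371 to 5704 in males and 1596 to 1652 in females.

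The genes with the smallest p in striatum were Hist1h1b, Hist2h2aa1, Hist2h2aa2, Hist2h2ac and Hist1h1d. Hist2h2aa1, for example, ran from 46.5 to 183.5 in Δ12/Δ12 and from 162.4 to 224.7 in +/+, a log2 difference of −1.06 (SE 0.27, adjusted p = 0.0319), and in cortex it had −1.27 (SE 0.30, adjusted p = 0.0697). Its range in Δ12/Δ12 covers both kinds of library. The difference between Δ12/Δ12 and +/+ itself differed between labelled sexes in 50 of 68 members in striatum and 41 of 68 in cortex, where 55.8% and 43.9% of all entries did. With the labelled males alone, 3 against 3 and all cortex-like, 0 of 69 in striatum and 0 of 68 in cortex were called (4 and 2 at an unadjusted p under 0.05). By transcripts these libraries were not all male. Xist was above Ddx3y in 3 Δ12/Δ12 and 1 +/+ of them in striatum, and in 2 and 3 in cortex.

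No member passed the test between labelled tissues. Over all 60 libraries, 0 of 67 members were called by limma between striatum and cortex labels (2 at an unadjusted p under 0.05), as for 0% of all entries, and the members' median log2 difference was 0.04.

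Genes that act on the histone messages moved in both directions between the +/+ groups of the lines on the first scale. Of 14 tested genes for histone transcription and 3′ processing, 9 were higher and 3 lower in KO-line libraries labelled striatum, and 8 higher and 3 lower in cortex. These shares, and those of the lists that follow, are to be read beside the 79.4% and 68% of all entries called in these comparisons. Srrt, which links the cap to 3′ end formation, was higher (log2 differences of 1.06, SE 0.15, and 0.59, SE 0.20), as was Sympk, the scaffold of the cleavage complex (0.99, SE 0.09, and 1.03, SE 0.10). Cstf2t, a cleavage factor subunit, was higher by less (0.22, SE 0.06, and 0.32, SE 0.11), and its paralog Cstf2 had 0.15 (SE 0.09) and 0.01 (SE 0.17) and was not called. Chosen for their role after their values were seen, Slbp, the stem-loop binding protein, was lower (−1.02, SE 0.07, and −1.39, SE 0.20), and Lsm11, a U7 snRNP subunit, was lower too (−0.69, SE 0.09, and −1.20, SE 0.11). On the short-transcript scale the ratio of striatum-like to cortex-like medians was 1.17 for Slbp and 1.35 for Lsm11, against 0.395 and 0.445 on the first. Npat and Hinfp, of the same list, were higher in striatum-like libraries without overlap, with ratios of 1.98 and 1.92 on the first scale. By these medians 12 of the 16 listed genes were higher in striatum-like libraries and 3 lower.

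Of 12 listed replication-independent histones, most of which are made also outside S phase and are polyadenylated, 4 were higher and 7 lower in both labelled tissues. H3f3a, one of the H3.3 genes, was lower (−1.64, SE 0.11, and −1.36, SE 0.14), whereas H3f3b, the other main H3.3 gene, had −0.09 (SE 0.08) and −0.10 (SE 0.09) and was not called. H3f3c had −1.68 (SE 0.13) and −1.70 (SE 0.18), and H1f0, the linker histone of resting cells, −1.08 (SE 0.09) and −1.15 (SE 0.10). On the short-transcript scale the ratio of striatum-like to cortex-like medians was 0.984 for H3f3a, 2.96 for H3f3b, 0.981 for H3f3c and 1.32 for H1f0. Among histone chaperones 7 were higher and 2 lower of 11 in striatum and 6 higher and 2 lower of 12 in cortex, with Rbbp4 lower (−1.43, SE 0.10, and −1.33, SE 0.12) and its paralog Rbbp7 higher (0.34, SE 0.07, and 0.66, SE 0.13). Atrx, which works with the H3.3 chaperone Daxx, was slightly lower (−0.25, SE 0.09, and −0.38, SE 0.11), and Hira, another H3.3 chaperone, was higher (0.67, SE 0.09, and 0.66, SE 0.11). With scaling on short transcripts the ratio of medians was above 1 for Rbbp4 (1.16) and Atrx (2.47), so that both turned, as well as for Rbbp7 (4.46) and Hira (4.86).

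Of the S phase and proliferation list, 4 were higher and 5 lower of 14 in striatum and 3 higher and 3 lower of 13 in cortex on the first scale. Pcna, the replication clamp, was lower (−1.56, SE 0.08, and −1.48, SE 0.15), as were the cyclins Ccne1 (−1.97, SE 0.09, and −1.27, SE 0.20) and Ccne2 (−1.76, SE 0.14, and −1.74, SE 0.16), with ratios of medians of 0.970, 0.710 and 0.604 on the short-transcript scale. Rrm1, a ribonucleotide reductase subunit, had 0.20 (SE 0.07), called, and 0.21 (SE 0.11), not called. Mki67, a marker of cycling cells named here after its values were seen, had medians of only 0.0303 and 0.354 FPKM in cortex-like and striatum-like libraries. In KO/+ against +/+ labelled striatum, 1 of 15 genes of this list was called higher (Rrm2, 0.65, SE 0.13, adjusted p = 0.0182), and 1 of 14 processing genes lower (Lsm11, −0.39, SE 0.09, adjusted p = 0.0291).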

How the data were processed

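Total RNA of cortex and striatum was depleted of ribosomal RNA and sequenced from directional libraries (NovaSeq6000). For each library the authors deposited FPKM of 47597 entries, with interval bounds and a status. The submitters' processing notes name Trimmomatic 0.30, TopHat2 2.0.14, SAMtools 1.3, HTSeq 0.6.1p1, bcl2fastq 2.20 and build GRCm38.p4; the program that gave the FPKM, its strand setting and its treatment of shared reads are not given in the sources used here. Depth was estimated from the interval bounds. The labels number the mice, and 0 of 1770 library pairs held identical values.

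In the re-analysis, 23 entries with a status other than OK were left out, and libraries were rescaled by the median of ratios over 13235 entries. Tests used limma 3.58.1 in R 4.3.3 on log2(FPKM + 0.5), for entries with a mean of at least 0.5, with labelled sex as a covariate, 6 libraries against 6, and Benjamini-Hochberg adjustment over all entries tested; differences are given on that scale, where those of weakly expressed genes come out too small. The code was tested on simulated data. Members, lists and tests were chosen with earlier results of these data known. Named members were the 5 with the highest median in each class and, per comparison, up to 5 called members with the smallest adjusted p, or the member with the smallest p where none was called; companion genes were those with the highest mean. Groups came from the labels. The expression classes served description and 1 covariate alternative. The library striatum KO-line KO/+ female 3 has a title that names the other line and was placed by its genotype label. Between groups of different genotype or line, same-numbered libraries are different mice by label, so numbers were not used as pairs. Their deviations had a correlation over 0.1 in 0 of 6 pairs in every such comparison, which cannot show whether numbers identify mice. Alternatives were the FPKM as deposited, quantile normalization, other pseudocount (0.1), filter, covariates, threshold (0.1) and each library left out, and, added after seeing the data, scaling on short protein-coding entries and labelled males alone. Stem-loop letters were read from GENCODE M21 transcripts and promoters from RefSeq.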

Additional observations from a re-analysis of the deposited data

Results flagged for a closer look

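Among 60 class sums checked for an outlying library (10 groups of 6, where chance flags about 1 group in 20), 3 stood out. The H3 sum of cortex KO-line KO/+ female 1 was 120.3 rescaled FPKM, below the 158.3 to 176.5 of the other 5 libraries. The H2A sum of cortex Δ12-line Δ12/+ female 1 was 544.1, below 621.6 to 654.8. The H1 sum of striatum Δ12-line +/+ male 3 was 383.8, above 271.4 to 309.4.

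The difference between Δ12/Δ12 and +/+ mice differed between labelled sexes by the interaction test in limma: 50 of 68 histone members were called in striatum as labelled, where 55.8% of all entries were, and 41 of 68 in cortex, where 43.9% were. Of these, 49 and 41 had the higher Δ12/Δ12 value, relative to +/+, in labelled males. The 3 labelled male libraries were cortex-like and the 3 labelled female libraries striatum-like in each, so that sex as labelled and tissue class cannot be told apart.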

How the results depend on the processing

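The line comparison of +/+ mice kept its count of called members within 1.5 times under every alternative (62 to 64 in striatum and 52 to 58 in cortex with 1 library left out), although directions turned with scaling. On the short-transcript scale the log2 difference turned in striatum to 0.74 for Hist1h1c, 0.043 for Hist1h2ae, 0.51 for Hist1h2bc, 0.53 for Hist1h3d, 0.85 for Hist1h3e, 0.15 for Hist1h3i and 0.32 for Hist1h4d, and in cortex to 0.22 for Hist1h1b, 0.75 for Hist1h1c, 1.00 for Hist1h2bc, 0.80 for Hist1h3d, 1.07 for Hist1h3e, 0.42 for Hist1h3h, 0.36 for Hist1h3i, 0.36 for Hist1h4d and 0.15 for Hist3h2ba. Quantile normalization turned Hist1h4d (0.69) and Hist1h4h (0.25) in striatum and Hist1h2bc (0.092), Hist1h4d (1.08) and Hist1h4h (0.69) in cortex, and the FPKM as deposited turned Hist1h2ak (−0.015) in striatum. Apart from the scalings' own construction, the cause was not tested.

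For KO/+ in striatum, 27 members were called at an adjusted p under 0.1, 1 on the FPKM as deposited, 9 with no filter and 7 to 17 with 1 library left out. Over all entries the first 3 of these were 1844 of 15808, 306 of 15500 and 1006 of 26315. For Δ12/Δ12 in striatum the counts were 41 at an adjusted p under 0.1, 38 as deposited, 5 with quantile normalization, 12 on the short-transcript scale, 4 with no filter, 0 without the sex covariate, 0 with expression class as a covariate, 0 in labelled males alone and 0 to 36 with 1 library left out. Over all entries the first 5 of these were 7398 of 15467, 4336 of 15663, 3414 of 15660, 7705 of 15300 and 2188 of 26399. The 12 were 5 higher and 7 lower, beside 7367 higher and 338 lower of all entries. In cortex the member counts were 28 under 0.1, 11 on the short-transcript scale and 0 to 27 with 1 library left out, the 27 without Δ12-line +/+ male 2. Over all entries 4581 of 15696 were called under 0.1 and 5605 of 15617 on the short-transcript scale. The 11 members were 5 higher and 6 lower, beside 5205 higher and 400 lower of all entries. All other comparisons stayed at 0 with 1 library left out. With the mouse number as a replicate block, 3 members were called for KO/+ in striatum, 0 for Δ12/Δ12 in either labelled tissue, 64 and 54 for the lines and 0 elsewhere. With this block, 302 of all 15808 entries were called for KO/+ in striatum, and 12246 of 15712 and 10398 of 15800 for the lines. Only in the comparison of labelled tissues do the numbers name the same mouse by label, and there 3 of 30 correlations were over 0.1. Xist was above Ddx3y in 0 of 6 Δ12/+ libraries labelled cortex and in 2 of 6 labelled striatum. Some same-numbered libraries therefore differed in these sex transcripts. Between expression classes, members with the higher median in striatum-like libraries numbered 6 with quantile normalization and 40 on the short-transcript scale, members that did not overlap 18 and 15, the median sum of striatum-like libraries was 1409 as deposited, 3653 with quantile normalization and 2800 on the short-transcript scale, and that of cortex-like libraries 3680 on the last. With quantile normalization 8114 of all 16044 entries had the higher median and 5597 did not overlap. On the short-transcript scale these were 14026 and 9781 of 16646.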
